A study of Mus musculus with 90 samples.

Results

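Described here are 10 transcriptional targets of the tumour suppressor p53, namely Cdkn1a, Mdm2, Ccng1, Psrc1, Eda2r, Phlda3, Bax, Bbc3, Trp53inp1 and Zmat3, in mouse liver. They were chosen by name, with earlier results of these data known. Their mouse symbols were matched to Entrez identifiers, and all 10 were found among the 24475 genes of each deposited count table. Liver mRNA was sequenced in 90 libraries from mice of 9 groups of 10, in a pair of experiments on the glucagon receptor, which raises cAMP in hepatocytes and so activates protein kinase A (PKA). In experiment 1 mice were injected with AAV8, a viral vector with a strong preference for hepatocytes, that expressed a short hairpin RNA, and the groups were Control, Gcgr KD (knockdown of the glucagon receptor), Gnas KD (of the stimulatory G protein alpha subunit), PKA KD and Epac2 KD (of Rapgef4, a cAMP-activated exchange factor). In experiment 2 the 4 groups were Control AAV + Control mAb, Control AAV + Gcgr mAb, Prkar1a KD + Control mAb and Prkar1a KD + Gcgr mAb. Prkar1a encodes a regulatory subunit that holds PKA inactive, so its loss activates the kinase, and the Gcgr mAb is an antibody against the glucagon receptor. All groups thus received a viral vector, the controls included. The labels hold no age, sex, strain, vector dose or time after injection. They do not say that the libraries of a group came from separate mice, so every p-value here speaks of the spread among libraries, which may be technical.

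p53 is a transcription factor that is kept low in unstressed cells by the ubiquitin ligase Mdm2 and accumulates after DNA damage, ribosome stress or oncogene activation. It then binds response elements near its targets, which stop the cell cycle, feed back on p53 itself, or commit the cell to apoptosis. In liver, the pathway is best known from regeneration, toxic injury and tumour suppression, and p21, the product of Cdkn1a, limits the proliferation of hepatocytes.

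The p53 response element is built from a pair of copies of a decamer, the p53 half-site, which reads as the same motif on both strands. RefSeq promoter windows (GRCm38.p6), which reach from 250 bases before to 50 bases after a gene's annotated start, were at hand for 8 of the 10 genes, in 12 windows. An exact half-site was found in 4 of the 12 windows, which belong to 4 genes, whereas 8.36% of all 32851 windows of this length held it. A full site was defined as a pair of half-sites with at most 13 bases between them, at most 2 mismatches in all, and the central C and G of each decamer kept. It was found in 3 of the 12 windows, against 4.09% of all windows. The 4 windows with a half-site are printed because they show where in the searched windows the p53 motif lies. Sequence of these genes outside the windows was not searched. Capitals mark the single exact half-site in the Mdm2 window and 1 full site each in those of Cdkn1a, Ccng1 and Bax. That site has the fewest mismatches and, at a tie, the shortest spacer. The windows are chr17:29090729-29091028 (plus strand) for Cdkn1a, chr11:40755237-40755536 (minus strand) for Ccng1, chr7:45466849-45467148 (minus strand) for Bax and chr10:117710709-117711008 (minus strand) for Mdm2, each written 5′ to 3′ on the strand of the gene.
Cdkn1a: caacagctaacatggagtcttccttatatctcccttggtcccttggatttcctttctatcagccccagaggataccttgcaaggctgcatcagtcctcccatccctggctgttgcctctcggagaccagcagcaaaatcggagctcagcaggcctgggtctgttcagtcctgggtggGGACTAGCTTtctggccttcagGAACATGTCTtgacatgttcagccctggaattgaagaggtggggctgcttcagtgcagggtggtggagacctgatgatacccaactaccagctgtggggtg
Ccng1: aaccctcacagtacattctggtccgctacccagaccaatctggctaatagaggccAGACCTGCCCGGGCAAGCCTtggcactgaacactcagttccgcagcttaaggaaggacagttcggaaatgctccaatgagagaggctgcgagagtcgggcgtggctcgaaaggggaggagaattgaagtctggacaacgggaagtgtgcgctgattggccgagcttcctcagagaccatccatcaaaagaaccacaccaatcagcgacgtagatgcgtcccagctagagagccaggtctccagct
Bax: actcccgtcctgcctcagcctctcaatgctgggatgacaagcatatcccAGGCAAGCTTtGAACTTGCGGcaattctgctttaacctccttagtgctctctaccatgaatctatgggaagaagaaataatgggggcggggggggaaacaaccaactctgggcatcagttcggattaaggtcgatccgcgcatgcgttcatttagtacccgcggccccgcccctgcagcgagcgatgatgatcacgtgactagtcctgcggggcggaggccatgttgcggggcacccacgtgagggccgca
Mdm2: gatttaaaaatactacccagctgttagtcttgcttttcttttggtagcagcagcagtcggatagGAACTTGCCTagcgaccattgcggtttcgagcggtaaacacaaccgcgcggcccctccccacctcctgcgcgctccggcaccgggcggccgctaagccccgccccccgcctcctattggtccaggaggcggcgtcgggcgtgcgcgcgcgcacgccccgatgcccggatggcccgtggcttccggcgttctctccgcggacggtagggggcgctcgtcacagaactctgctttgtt

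The printed windows of Cdkn1a, Ccng1 and Bax each held 2 full sites by this definition, of which 1 is marked. In Cdkn1a the marked site ran from -73 to -42 relative to the start, with 0 mismatches and a spacer of 12 bases. The other Cdkn1a site starts at -51 with the same GAACATGTCT and goes on directly into tgacatgttc. The marked Ccng1 site ran from -195 to -176 with 1 mismatch and a spacer of 0 bases. The marked Bax site ran from -201 to -181 with 2 mismatches and a spacer of 1 base. The Mdm2 half-site lay at -186 to -177. The windows of Psrc1, Eda2r, Phlda3 and Bbc3, and a second window of Cdkn1a (chr17:29093519-29093818, plus strand), held no exact half-site, which says only that these letters are not in those windows. A match is a description of sequence, and binding of p53 was not measured.

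The labels held in every knockdown group, since the targeted transcript was lower in each knockdown library than in each control library of its experiment (for example, Gcgr at 38.3 to 54.1 against 146 to 218 CPM, the counts per library scaled to a common total). Total counts were 20.8 to 33.7 M (mega counts) per library in experiment 1 and 8.87 to 19.5 M in experiment 2. The hepatocyte markers Alb, Ttr, Apoa1, Hnf4a, Cps1 and Serpina1b summed to 57800 CPM or more in every library of experiment 1 and to 27200 CPM or more in experiment 2. The label of PKA KD names no subunit, and both catalytic subunit transcripts were lower in it (Prkaca at 7.34 to 23.4 against 85.6 to 107 CPM, Prkacb at 6.73 to 13.8 against 34.7 to 44.6 CPM). A few libraries stood apart in the p53 targets as a set. For each library the log2 CPM of each tested gene was taken relative to its group mean and averaged in SD units. Epac2 KD replicate 5 (1.86), Control AAV + Gcgr mAb replicate 2 (1.79) and PKA KD replicate 5 (1.6) were highest, with 10 of 10, 9 of 9 and 10 of 10 genes above the group mean. Epac2 KD replicate 7 (-2.08), Control AAV + Control mAb replicate 9 (-1.81) and Gnas KD replicate 8 (-1.68) were lowest, with 0 genes above it. For the 10 genes, results that turn on these libraries are given with and without them. The marker and pathway lists were not refitted.

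Per kilobase of exon in the experiment 1 controls, Bax (10.1 CPM per kb), an outer mitochondrial membrane pore former, and Ccng1 (9.45 CPM per kb), the cyclin G1 gene, had the highest mean levels. Mdm2, Trp53inp1 and Cdkn1a followed at 5.95, 5.59 and 5.25 CPM per kb. The levels were 2.89 CPM per kb for Bbc3, 1.35 for Phlda3 and 1.05 for Zmat3. Eda2r (0.257 CPM per kb) and Psrc1 (0.175 CPM per kb) had the lowest levels. In the Control AAV + Control mAb group, Ccng1 (19.4 CPM per kb) and Trp53inp1 (15.2 CPM per kb) led, and Bax, Mdm2 and Cdkn1a were at 10.4, 6.38 and 4.7 CPM per kb. The experiments were counted and scaled separately, so these levels were not tested against each other. After the filter on low counts, 10 of the 10 genes were tested in experiment 1, among 13574 genes, and 9 in experiment 2, among 12847 genes, where Psrc1 was left out.

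**Figure D1:**
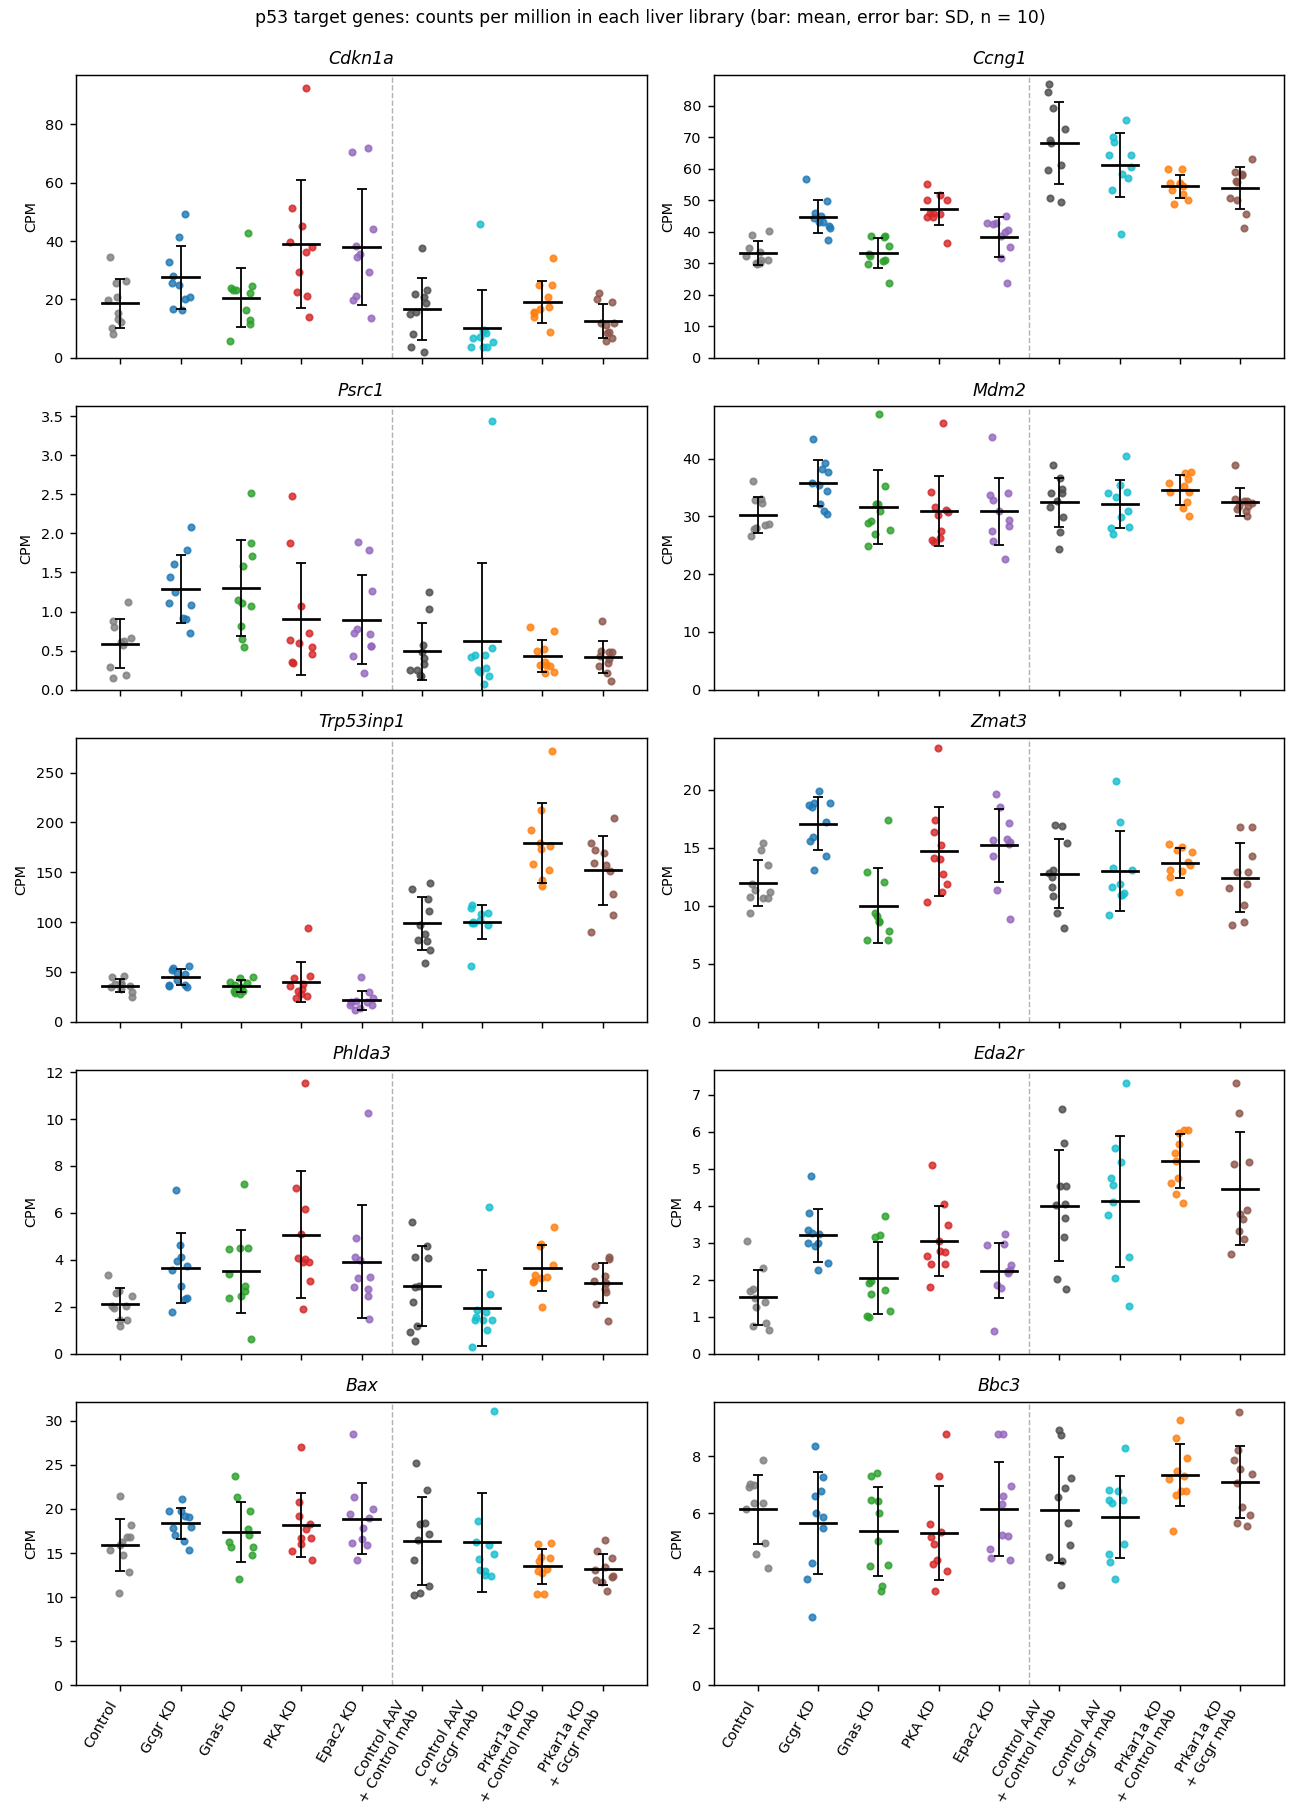
CPM of each p53 target in each library, by group (x axis), with the dashed line between the experiments. Points are libraries, horizontal bars means and error bars SD (n = 10, cut at 0 where the bar would go below it). Cdkn1a reaches 92.3 CPM in 1 PKA KD library, Trp53inp1 lies lowest in Epac2 KD in experiment 1 and highest with Prkar1a KD in experiment 2, and Cdkn1a, Psrc1 and Bax each have 1 high library in Control AAV + Gcgr mAb.

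The first question was whether p53 targets differ when the glucagon receptor or a component downstream of it is lowered. With Gcgr KD, 4 of the 10 genes rose and 0 fell, where 7.23% of all tested genes were called at an adjusted p under 0.05 and 2.9% were called higher. These were Ccng1, Psrc1, Eda2r and Zmat3, by 1.35 times for Ccng1, 1.43 times for Zmat3 and 2.1 times for Eda2r, and by most for Psrc1. The estimate was positive for 9 of the 10 genes, and the median log2 change was 0.47 against 0.01 over all genes. Other listed p53 targets had medians of 0.08 (apoptosis), 0.13 (growth arrest and feedback), 0.09 (DNA repair and nucleotides) and 0.02 (metabolism and redox). The 10 genes were chosen with earlier results of these data known, and they varied together within groups. The counts here and below are thus no independent test of the 10 as a set. All 4 knockdown groups of experiment 1 were compared with the same 10 control libraries, so their changes are not independent of each other. Changes are log2 fold changes ± SE from edgeR's quasi-likelihood test with n = 10 a group, and p-values are adjusted by Benjamini-Hochberg over all tested genes.

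Among the genes of growth arrest, Ccng1 (Entrez gene 12450, chromosome 11, 40748552 to 40755309 in GRCm38.p6), which binds a phosphatase that acts on Mdm2, spanned 29.7 to 40.3 CPM (median 31.6) in Control and 37.3 to 56.7 CPM (median 43.7) with Gcgr KD. All 10 knockdown libraries lay above the control median, and the ranges overlapped only at their ends. The change was 0.43 ± 0.086 (adjusted p = 0.000661). Psrc1 (Entrez gene 56742, chromosome 3, 108383804 to 108388231), a spindle-associated protein gene, spanned 0.148 to 1.12 CPM (median 0.617) in Control and 0.728 to 2.08 CPM (median 1.18) with Gcgr KD, a change of 1.12 ± 0.35 (adjusted p = 0.0382). This call rests on few reads, with a median of 15 counts a library in Control and 31.5 with Gcgr KD. It was lost on leaving out any of Control replicates 1, 3, 4, 7, 9 and 10 or Gcgr KD replicates 2, 4, 6 and 8, with adjusted p-values of 0.0516 to 0.0807 and changes of 1.01 to 1.13. Cdkn1a (Entrez gene 12575, chromosome 17, 29090979 to 29100722), which encodes the cyclin-dependent kinase inhibitor p21, went from a median of 17.5 CPM (8.22 to 34.5) to 25.3 CPM (16.4 to 49.4). Its difference of 0.56 ± 0.31 did not pass the test (adjusted p = 0.288), and the 2 groups overlapped over most of their range.

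Zmat3 (Entrez gene 22401, chromosome 3, 32334792 to 32365665), an RNA-binding zinc finger protein gene, spanned 9.42 to 15.4 CPM (median 11.3) in Control and 13.1 to 19.9 CPM (median 17.9) with Gcgr KD. It rose by 0.51 ± 0.14 (adjusted p = 0.0142), and all 10 knockdown libraries exceeded the control median. Eda2r (Entrez gene 245527, chromosome X, 97333837 to 97377234), the receptor for ectodysplasin A2 in the TNF receptor family, went from a median of 1.45 CPM (0.627 to 3.04) to 3.12 CPM (2.26 to 4.81), a change of 1.07 ± 0.24 (adjusted p = 0.00281). Again every Gcgr KD library was above the control median. Phlda3 (Entrez gene 27280, chromosome 1, 135766085 to 135769134), whose product competes with AKT for membrane lipids, differed by 0.79 ± 0.30 (adjusted p = 0.103). Mdm2 (Entrez gene 17246, chromosome 10, 117688875 to 117710758) differed by 0.24 ± 0.099 (adjusted p = 0.132) with 10 of 10 libraries above the control median. A fit on only these 2 groups called Phlda3 and Mdm2, and total-count scaling, which moved the median of all genes to 0.114 and the share of called genes that were higher from 40.1% to 83.4%, called Mdm2. Trp53inp1 (Entrez gene 60599, chromosome 4, 11156441 to 11174379), a p53 cofactor that also acts in autophagy, was at 0.29 ± 0.19 (adjusted p = 0.367). Of the apoptosis effectors, Bax (Entrez gene 12028, chromosome 7, 45461695 to 45466903) gave a difference of 0.21 ± 0.11 (adjusted p = 0.278) and Bbc3 (Entrez gene 170770, chromosome 7, 16308398 to 16318334), encoding the BH3-only protein PUMA, at -0.11 ± 0.18 (adjusted p = 0.771).

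**Figure D2:**
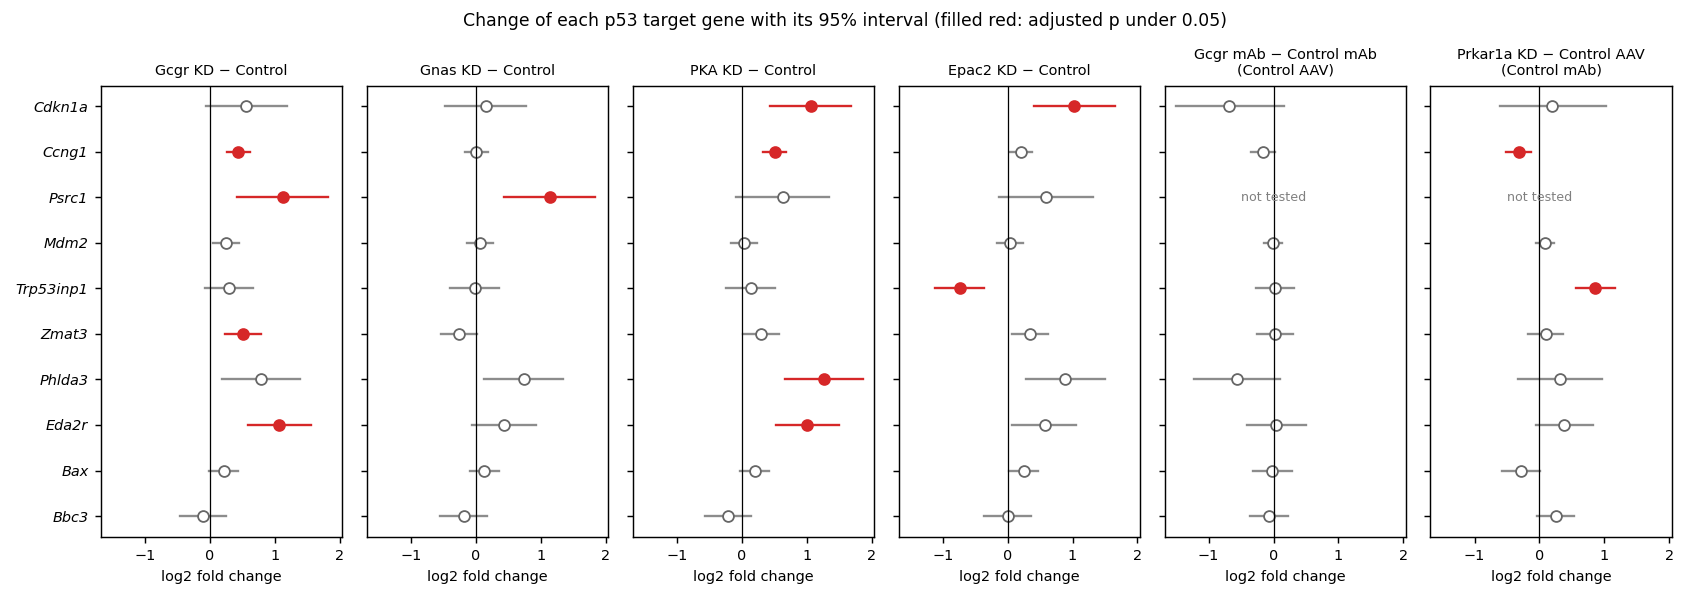
Log2 fold change (x axis) of each p53 target (rows) in 6 comparisons, with its 95% interval. Filled red points passed an adjusted p of 0.05. Red points are on the right for 4 genes with Gcgr KD and 4 with PKA KD, 1 gene with Gnas KD and 1 with Epac2 KD and for Trp53inp1 with Prkar1a KD, and on the left for Trp53inp1 with Epac2 KD and Ccng1 with Prkar1a KD. With Gcgr mAb there are none.

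With PKA KD, 4 of the 10 genes rose and 0 fell, where 32.4% of all tested genes were called and 17.7% were called higher. The 4 were Cdkn1a, Ccng1, Phlda3 and Eda2r, and the median change over the 10 was 0.40 against 0.01 over all genes. Medians of the other listed p53 targets were -0.05 (apoptosis), 0.04 (growth arrest and feedback), 0.03 (DNA repair and nucleotides) and 0.04 (metabolism and redox). Cdkn1a spanned 14 to 92.3 CPM (median 37.2), against 8.22 to 34.5 CPM in Control, and rose by 1.06 ± 0.31 (adjusted p = 0.00606). Replicate 5 was the highest library at 92.3 CPM, and 9 of 10 libraries lay above the control median. Ccng1 spanned 36.5 to 55.2 CPM (median 46), a rise of 0.51 ± 0.086 (adjusted p = 5.69e-06). Phlda3 went from a median of 2.02 CPM (1.19 to 3.36) to 4.04 CPM (1.91 to 11.5) and rose by 1.27 ± 0.30 (adjusted p = 0.000711). Eda2r reached a median of 2.76 CPM (1.79 to 5.11), a rise of 1.01 ± 0.24 (adjusted p = 0.000881). For Ccng1 and Eda2r, all 10 PKA KD libraries were above the control median.

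The other members did not pass with PKA KD. Zmat3 was at 0.30 ± 0.14 (adjusted p = 0.0989) and Bax at 0.20 ± 0.11 (adjusted p = 0.187), and both were called under total-count scaling, which moved the median of all genes to 0.108 and the share of called genes that were higher from 54.4% to 75.3%. Psrc1 was at 0.63 ± 0.36 (adjusted p = 0.178), Mdm2 at 0.03 ± 0.099 (adjusted p = 0.836) and Bbc3 at -0.21 ± 0.18 (adjusted p = 0.411). Trp53inp1 was at 0.14 ± 0.19 (adjusted p = 0.622), with replicate 2 at 93.7 CPM and the next library at 45.9 CPM.

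With Gnas KD, 1 of the 10 genes rose and 0 fell, where 15.2% of all tested genes were called and 6.83% were called higher. This was Psrc1, which spanned 0.55 to 2.52 CPM (median 1.13) against 0.148 to 1.12 CPM in Control and rose by 1.14 ± 0.35 (adjusted p = 0.0195). Without Gnas KD replicate 9 its change was 0.98 and the call was lost (adjusted p = 0.0536). Ccng1 was level with Control, at 0.00 ± 0.086 (adjusted p = 0.995) with a 95% interval of -0.17 to 0.18. Phlda3 was at 0.74 ± 0.30 (adjusted p = 0.0901), and without Gnas KD replicate 8, the lowest library at 0.606 CPM, it was at 0.86 (adjusted p = 0.0313). Zmat3 was at -0.26 ± 0.14 (adjusted p = 0.222), and without Gnas KD replicate 1, at 17.4 CPM the highest library, at -0.38 (adjusted p = 0.0425). Cdkn1a was at 0.15 ± 0.31 (adjusted p = 0.808).

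With Epac2 KD, 1 of the 10 genes rose and 1 fell, where 4.56% of all tested genes were called, 1.82% higher and 2.74% lower. Trp53inp1 spanned 11.5 to 44.5 CPM (median 20) against 24.5 to 45.6 CPM (median 36.6) in Control and fell by 0.74 on the log2 scale (SE 0.19, adjusted p = 0.0114). Only 1 of the 10 Epac2 KD libraries was above the control median. Cdkn1a spanned 13.8 to 72 CPM (median 35), a change of 1.02 ± 0.31 (adjusted p = 0.0434), so the 2 genes moved in opposite directions. The Cdkn1a call was lost in 13 refits that left out 1 library (Control replicates 1, 3, 5, 7, 8, 9 and 10 and Epac2 KD replicates 1, 2, 5, 6, 8 and 9), with adjusted p-values of 0.0506 to 0.112 and changes of 0.87 to 1.04. It was also lost with limma-voom, with total-count scaling, without the filter and in a fit on only these 2 groups. Phlda3 was at 0.89 ± 0.30 (adjusted p = 0.0804) and was called by DESeq2. Without Epac2 KD replicate 7, the lowest library of the set, Phlda3 (0.98, adjusted p = 0.0453) and Ccng1 (0.27, adjusted p = 0.0368) were called. Mdm2 was at 0.03 ± 0.099 (adjusted p = 0.924) and Bbc3 at 0.00 ± 0.18 (adjusted p = 0.997).

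The knockdowns were also compared with each other, which tests the differences between them directly. Gnas KD was lower than Gcgr KD for Ccng1, by -0.43 ± 0.086 (adjusted p = 0.000491), and for Zmat3, by -0.77 ± 0.14 (adjusted p = 1e-04), so 2 of the 10 genes were called lower where 5.84% of all genes were called and 3.47% were called lower. For both genes, 0 of 10 Gnas KD libraries were above the Gcgr KD median. Eda2r was at -0.64 ± 0.24 (adjusted p = 0.11), and without Gnas KD replicate 9 at -0.77 (adjusted p = 0.0425). PKA KD was higher than Gnas KD for Cdkn1a (0.91 ± 0.31, adjusted p = 0.0181), Ccng1 (0.50 ± 0.086, adjusted p = 6.87e-06) and Zmat3 (0.55 ± 0.14, adjusted p = 0.00155), 3 of 10 where 34% of all genes were called and 18.4% were called higher. Without PKA KD replicate 5 the Cdkn1a difference was 0.67 and lost its call (adjusted p = 0.0706), and Psrc1 was called lower (-0.83, adjusted p = 0.0424). Eda2r was at 0.57 ± 0.24 (adjusted p = 0.0564), and it was called by DESeq2 and by limma-voom. It was also called, at adjusted p from 0.0208 to 0.0486, without any of Control replicates 3 and 6, Epac2 KD replicate 7, Gnas KD replicates 1, 7 and 9 and PKA KD replicate 3. Between PKA KD and Gcgr KD, 0 of the 10 genes were called by edgeR's test, by DESeq2 or by limma-voom, where 31.7% of all genes were called by edgeR, and 1 had an unadjusted p under 0.05. That gene was Mdm2, at -0.21 ± 0.099 (adjusted p = 0.10), and it was called without PKA KD replicate 3 (-0.29, adjusted p = 0.0124) and without Gnas KD replicate 1 (-0.22, adjusted p = 0.05). The intervals of this comparison still allowed sizeable differences, from -0.11 to 1.11 for Cdkn1a. Between Epac2 KD and Gcgr KD, Trp53inp1 differed by -1.04 ± 0.19 (adjusted p = 4.99e-05), 1 of 10 where 20.8% of all genes were called and 9.72% were called lower, with 0 of 10 Epac2 KD libraries above the Gcgr KD median. Ccng1 was at -0.23 ± 0.086 (adjusted p = 0.055) and passed in 23 of 50 refits without 1 library. Without Epac2 KD replicate 5, Mdm2 was called as well (-0.28, adjusted p = 0.0355), and under total-count scaling Mdm2, Ccng1 and Eda2r were.

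By mean level, the experiment 1 groups were ordered PKA KD (39 ± 21.9 CPM, SD), Epac2 KD (38 ± 19.8), Gcgr KD (27.6 ± 10.8), Gnas KD (20.6 ± 10.1) and Control (18.7 ± 8.32) for Cdkn1a. Each neighbour in that order lay within 1 SD of the next. For Ccng1 the order was PKA KD (47.1 ± 5.08 CPM), Gcgr KD (44.8 ± 5.29), Epac2 KD (38.3 ± 6.45), Gnas KD (33.2 ± 4.78) and Control (33.2 ± 3.77). Here PKA KD and Gcgr KD differed by 0.07 (95% interval -0.10 to 0.25), and Gnas KD and Control were level, whereas Gcgr KD and Gnas KD differed by more than their SD.

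Cell type markers were read beside these results, since whole liver was sequenced and fewer cells of a type cannot be told apart from less RNA per cell. With Gnas KD the stellate markers Col1a1 (1.3 ± 0.34, adjusted p = 0.00649), Col3a1 and Reln rose, 3 of 6, and the cholangiocyte markers Sox9 and Spp1 rose, 2 of 5, while the hepatocyte marker Hnf4a fell (-0.17 ± 0.054, adjusted p = 0.0215). The stellate marker sum was 298 to 662 CPM, against 244 to 457 CPM in Control. With PKA KD, Sox9 (0.58 ± 0.19, adjusted p = 0.0131) and Spp1 rose, as did the erythroid marker Alas2, while Lyve1, Cd8a, Hnf4a and Serpina1b were among the markers that fell. With Epac2 KD, Sox9 rose (0.78 ± 0.19, adjusted p = 0.00572) and Apoa1 fell, and with Gcgr KD the hepatocyte marker Alb fell (-0.35 ± 0.11, adjusted p = 0.0438). The part of these markers in the changes of the p53 targets was not tested.

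Other genes of the pathway were counted from lists. The marker counts above and the list counts of experiment 1 here and below stand beside the shares of all genes called. Those shares were 7.23% with Gcgr KD, 15.2% with Gnas KD, 32.4% with PKA KD and 4.56% with Epac2 KD. Trp53, the p53 gene, did not pass in any of the 4 knockdowns against Control, with changes of 0.01, 0.11, -0.06 and -0.15 for Gcgr KD, Gnas KD, PKA KD and Epac2 KD (adjusted p = 0.908, 0.128, 0.34 and 0.056). Mdm4, which encodes an inhibitor of p53, did not pass either (-0.03, 0.16, 0.17 and -0.16, adjusted p = 0.873, 0.123, 0.0525 and 0.211). Of 16 other targets in growth arrest and feedback, 2 rose and 0 fell with Gcgr KD, the phosphatase gene Ptp4a3 (0.58 ± 0.13, adjusted p = 0.00279) and the mitotic gene Gtse1 (0.61 ± 0.19, adjusted p = 0.0324). Of 10 other apoptosis targets, 0 were called with Gcgr KD by edgeR's test and 2 had an unadjusted p under 0.05, and with PKA KD 1 rose and 3 fell, led by Perp (-1.52 ± 0.094, adjusted p = 1.69e-18), a desmosome gene, and Ei24 (-1.05 ± 0.073, adjusted p = 1.26e-16). Of 12 targets in metabolism and redox, 4 rose and 5 fell with PKA KD. Gls2, the liver glutaminase, fell with Gcgr KD (-0.69 ± 0.21, adjusted p = 0.0346), Gnas KD (-0.91 ± 0.21, adjusted p = 0.00206) and PKA KD (-1.16 ± 0.21, adjusted p = 2.13e-05). Tigar, a fructose bisphosphatase gene, rose with Gcgr KD (0.25 ± 0.071, adjusted p = 0.0224) and PKA KD (0.37 ± 0.071, adjusted p = 4.39e-05). Ptp4a3 also rose with Gnas KD (0.59 ± 0.13, adjusted p = 0.00105) and PKA KD (0.65 ± 0.13, adjusted p = 8.76e-05). In its list of 16, 3 rose and 0 fell with Gnas KD, and 1 rose and 3 fell with PKA KD. Of 7 DNA repair and nucleotide targets, 1 rose with Gnas KD, and 1 rose and 3 fell with PKA KD. Among p53 and its regulators, 22 were tested. Of these, 1 rose with Gcgr KD, 2 rose with Gnas KD, and 4 rose and 5 fell with PKA KD.

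Cell cycle genes, whose kinases p21 inhibits, were counted beside Cdkn1a. Of 25 tested, 13 rose and 0 fell with Gnas KD, led by the replication gene Mcm6 (1.11 ± 0.21, adjusted p = 0.000137) and by Ccnd1 (0.96 ± 0.26, adjusted p = 0.00891). With Gcgr KD 0 were called by edgeR's test and 7 had an unadjusted p under 0.05, with PKA KD 2 rose and 2 fell, and with Epac2 KD 0 rose and 1 fell (Aurka, -0.88 ± 0.25, adjusted p = 0.0301). Their median change was 0.40, 0.76, 0.19 and -0.37 with Gcgr KD, Gnas KD, PKA KD and Epac2 KD, against 0.01 to 0.02 over all genes. Among 11 tested other BCL2 family genes, 1 rose and 0 fell with Gcgr KD, and 4 rose and 0 fell with Gnas KD. With PKA KD, 5 rose and 1 fell. Bak1, which like Bax permeabilises mitochondria, rose with Gcgr KD (0.26 ± 0.064, adjusted p = 0.00668), Gnas KD (0.42 ± 0.064, adjusted p = 4.23e-06) and PKA KD (0.49 ± 0.064, adjusted p = 1.68e-08).

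Experiment 2 asked what activation of PKA does, with and without block of the receptor by antibody. With Gcgr mAb in Control AAV mice, 0 of the 9 tested genes were called by edgeR's test, by DESeq2 or by limma-voom, where 8.19% of all genes were called by edgeR, and 0 had an unadjusted p under 0.05. This result turned on 1 library. Cdkn1a spanned 1.94 to 37.7 CPM (median 17.2) with the control antibody and 3.67 to 46 CPM (median 6.94) with Gcgr mAb, where replicate 2 stood at 46 CPM and the next library at 9.57 CPM. With all libraries its difference was -0.68 ± 0.41 (adjusted p = 0.322), and without replicate 2 it was -1.38 (adjusted p = 0.01). Phlda3 was at -0.56 ± 0.33 (adjusted p = 0.30), and without that library at -0.98 (adjusted p = 0.0317). In both genes 1 of the 10 Gcgr mAb libraries was above the control median. The library was also the highest of its group for Psrc1 (3.43 CPM, the next at 0.529), Bax (31.1 CPM, the next at 18.7), Mdm2 and Zmat3, while its Ccng1 (64.5 CPM) and Trp53inp1 (98.8 CPM) lay near the group medians of 62.4 and 101 CPM. Its marker sums were the highest of the group for 8 of the 10 cell types, all but cholangiocytes and erythroid cells. They stood at 464 CPM for Kupffer cells (group median 174), 817 CPM for stellate cells (median 342), 8.09 CPM for neutrophils (median 1.44) and 82700 CPM for hepatocytes (median 66300). Over the whole group, Adgre1 and Stab2 rose and Serpina1b and Alas2 fell with Gcgr mAb. The part of these markers in the p53 target levels was not tested. The estimates for the other 7 tested genes lay between -0.16 for Ccng1 (95% interval -0.35 to 0.03) and 0.04 for Eda2r (95% interval -0.41 to 0.50).

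**Figure D3:**
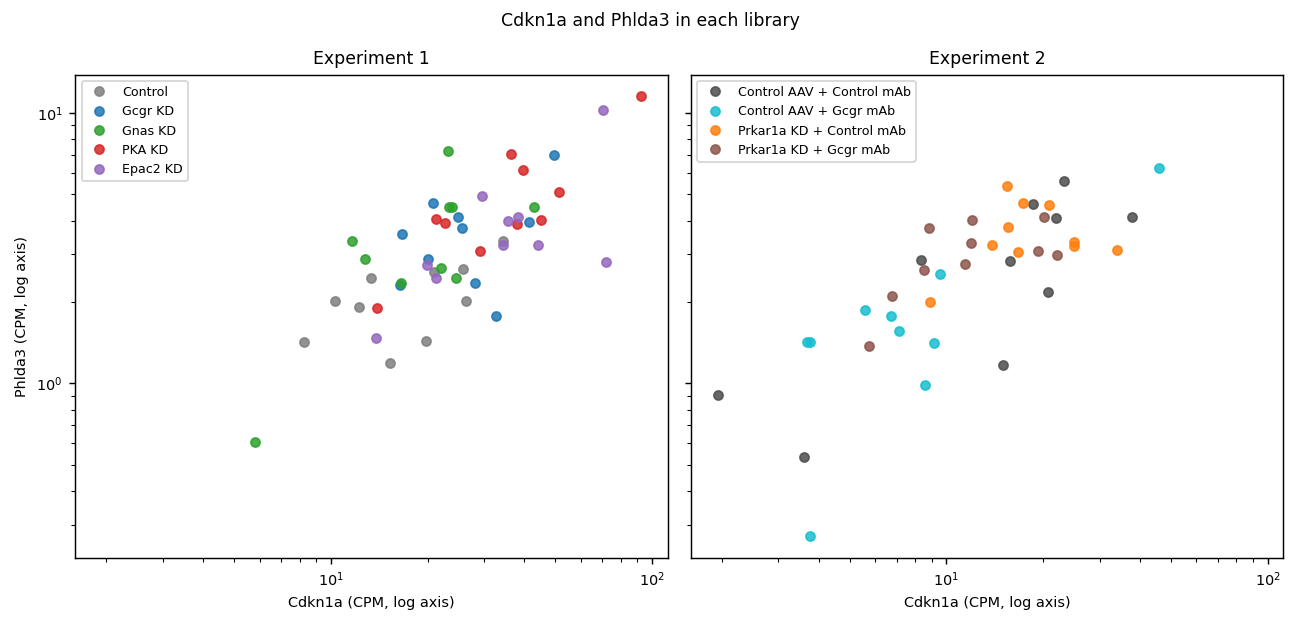
Cdkn1a (x axis) against Phlda3 (y axis) in CPM on log axes, 1 point a library, for experiment 1 (left) and experiment 2 (right). The Gcgr mAb library at 46 and 6.26 CPM lies far from the other 9 of its group, and PKA KD replicate 5 is the top right point of experiment 1 at 92.3 and 11.5 CPM.

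With Prkar1a KD under the control antibody, 1 of the 9 tested genes rose and 1 fell, where 56.2% of all tested genes were called, 29.3% higher and 26.9% lower. Trp53inp1 spanned 59.1 to 139 CPM (median 92.5) in Control AAV + Control mAb and 136 to 271 CPM (median 174) with Prkar1a KD, and rose by 0.86 ± 0.15 (adjusted p = 3.63e-06). The ranges met only at their ends, and all 10 knockdown libraries were above the control median. Ccng1 spanned 49.5 to 86.8 CPM (median 68.6) in the controls and 48.9 to 60 CPM (median 54.8) with Prkar1a KD, a change of -0.32 ± 0.094 (adjusted p = 0.00337), with 0 of 10 libraries above the control median. In experiment 1 Ccng1 was called higher with PKA KD, where 17.7% of all genes were called higher. The experiments were fitted separately, and a link between these 2 changes of Ccng1 was not tested. Under total-count scaling of the Prkar1a KD comparison, which moved the median of all genes to 0.159, Ccng1 was not called. Mdm2, Eda2r and Bbc3 were then called higher. The other genes were at 0.20 ± 0.40 for Cdkn1a, 0.38 ± 0.22 for Eda2r, 0.31 ± 0.32 for Phlda3, 0.25 ± 0.14 for Bbc3, -0.29 ± 0.15 for Bax, 0.10 ± 0.13 for Zmat3 and 0.09 ± 0.069 for Mdm2 (adjusted p from 0.0962 to 0.694). Bax was called lower (-0.34 to -0.30, adjusted p from 0.0364 to 0.0438) without Control AAV + Control mAb replicate 6 or 9 or without Control AAV + Gcgr mAb replicate 2. Bbc3 was called higher (0.33, adjusted p = 0.048) without Control AAV + Control mAb replicate 2.

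With Gcgr mAb in both arms, Prkar1a KD again raised Trp53inp1, from a median of 101 CPM (55.4 to 117) to 158 CPM (89.9 to 204), by 0.60 ± 0.15 (adjusted p = 0.00063), 1 of 9 where 53.1% of all genes were called and 26.5% were called higher. Without Control AAV + Gcgr mAb replicate 2, Cdkn1a (0.98, adjusted p = 0.0191) and Phlda3 (1.03, adjusted p = 0.00378) were called higher as well, against 0.29 ± 0.41 (adjusted p = 0.577) and 0.63 ± 0.33 (adjusted p = 0.107) with it. Without Control AAV + Gcgr mAb replicate 3, Ccng1 was called lower (-0.24, adjusted p = 0.0184), and without replicate 9, Bbc3 was called higher (0.33, adjusted p = 0.0488). Prkar1a KD + Gcgr mAb against Control AAV + Control mAb gave 0.62 ± 0.15 for Trp53inp1 (adjusted p = 0.00045) and -0.34 ± 0.094 for Ccng1 (adjusted p = 0.00249), 2 of 9 where 50.2% of all genes were called, 26% higher and 24.2% lower. Bax was at -0.32 ± 0.15 there (adjusted p = 0.0706). It was called lower (-0.38 to -0.33, adjusted p from 0.0244 to 0.0465) without Control AAV + Control mAb replicate 1, 6 or 9, Control AAV + Gcgr mAb replicate 2 or Prkar1a KD + Gcgr mAb replicate 8. Within Prkar1a KD mice, Gcgr mAb changed 0 of the 9 genes by edgeR's test, by DESeq2 or by limma-voom, as it did 0% of all genes by edgeR, and 0 had an unadjusted p under 0.05. The interaction of knockdown and antibody was called for 0 of the 9 genes with all 3 tools, where edgeR called 4.08% of all genes, and 0 had an unadjusted p under 0.05. For Trp53inp1 it was -0.26 ± 0.20 (adjusted p = 0.485). These comparisons share groups and are not independent.

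The p53 gene itself and several regulators were higher with Prkar1a KD under the control antibody, where 29.3% of all tested genes were called higher. Trp53 rose by 0.33 ± 0.086 (adjusted p = 0.00136) and Mdm4 by 0.57 ± 0.10 (adjusted p = 5.55e-06), and of 22 tested regulators 10 rose and 2 fell. Of 16 other targets in growth arrest and feedback 7 rose and 6 fell, with Plk2 (1.13 ± 0.13, adjusted p = 2.83e-09) and Plk3 (1.78 ± 0.26, adjusted p = 4.34e-07), a pair of stress-responsive polo-like kinases, among the rises and Gadd45a (-1.08 ± 0.24, adjusted p = 0.000219) and Ptp4a3 (-1.03 ± 0.24, adjusted p = 0.000308) among the falls. Of 12 metabolic targets 4 rose and 5 fell, with Gls2 at 2.04 ± 0.10 (adjusted p = 1.59e-19), the reverse of its direction in experiment 1, and the stress-induced sestrin gene Sesn1 at -1.27 ± 0.11 (adjusted p = 2.41e-13). Of 26 cell cycle genes 15 rose and 0 fell, such as Cdk1 (1.45 ± 0.33, adjusted p = 0.000304) and Mcm6 (0.96 ± 0.23, adjusted p = 0.000596). All these counts stand beside the 56.2% of all genes called, 29.3% higher and 26.9% lower. The hepatocyte marker sum was 31300 to 43900 CPM, against 71300 to 81700 CPM in the controls, with Alb, Ttr and Apoa1 lower but Hnf4a and Cps1 higher, and the erythroid markers Hba-a1, Hbb-bs and Alas2 were all lower. The stellate markers Col1a1 (-1.73 ± 0.37, adjusted p = 0.000144) and Col3a1, the endothelial markers Stab2 and Lyve1 and the cholangiocyte marker Spp1 fell too, and the neutrophil marker S100a9 rose. With Gcgr mAb in both arms, 4 of 6 Kupffer cell, 5 of 6 endothelial, 5 of 6 stellate, 2 of 5 cholangiocyte, 1 of 4 B cell, 1 of 3 erythroid and 3 of 6 hepatocyte markers fell with Prkar1a KD, such as Stab2 (-1.29 ± 0.16, adjusted p = 1.37e-08) and Col1a1 (-2.18 ± 0.38, adjusted p = 7.08e-06), and 3 of 6 hepatocyte markers rose. In that comparison 3416 of 12847 tested genes were called lower and 3403 higher. Its control arm holds Control AAV + Gcgr mAb replicate 2, with its high marker sums, and the markers were not refitted without it. The part of these markers in the values of the p53 targets was not tested.

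Within groups the p53 targets varied together from library to library. After each group mean was subtracted, 44 of the 45 gene pairs had a positive Pearson correlation over the 50 libraries of experiment 1 (median r 0.51), from -0.28 for Mdm2 and Bbc3 to 0.76 for Cdkn1a and Zmat3. In experiment 2, 34 of 36 pairs were positive over 40 libraries (median r 0.47), from -0.23 for Bax and Trp53inp1 to 0.75 for Eda2r and Phlda3. Phlda3 followed the mean of the other members most closely in experiment 1 (r 0.85, Spearman's rho 0.81) and, with Zmat3, in experiment 2 (r 0.79 for both). Bbc3 followed it least (r 0.30 and 0.17). Leaving out the 2 libraries farthest from the median of that mean left r at 0.83 and 0.73 for Phlda3, and took Mdm2 in experiment 1 from 0.39 to 0.21. Genes of a library share its depth and scaling. Pairs of other genes were not counted, so whether this is particular to the members was not tested. The members' mean correlated with total counts within groups at r 0.42 (rho 0.32) in experiment 1 and 0.13 (rho 0.18) in experiment 2, and at 0.23 and 0.03 without the 2 libraries farthest in depth. Against the summed markers of 9 cell types, r lay between -0.42 for Kupffer cells (rho -0.30) and 0.32 for stellate cells (rho 0.38) in experiment 1, and between -0.20 for endothelial cells (rho -0.30) and 0.37 for B cells (rho 0.28) in experiment 2. In the other experiment, r was 0.00 for Kupffer cells, 0.24 for stellate cells, -0.34 for endothelial cells and 0.07 for B cells. These are descriptions of the libraries and carry no test.

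**Figure D4:**
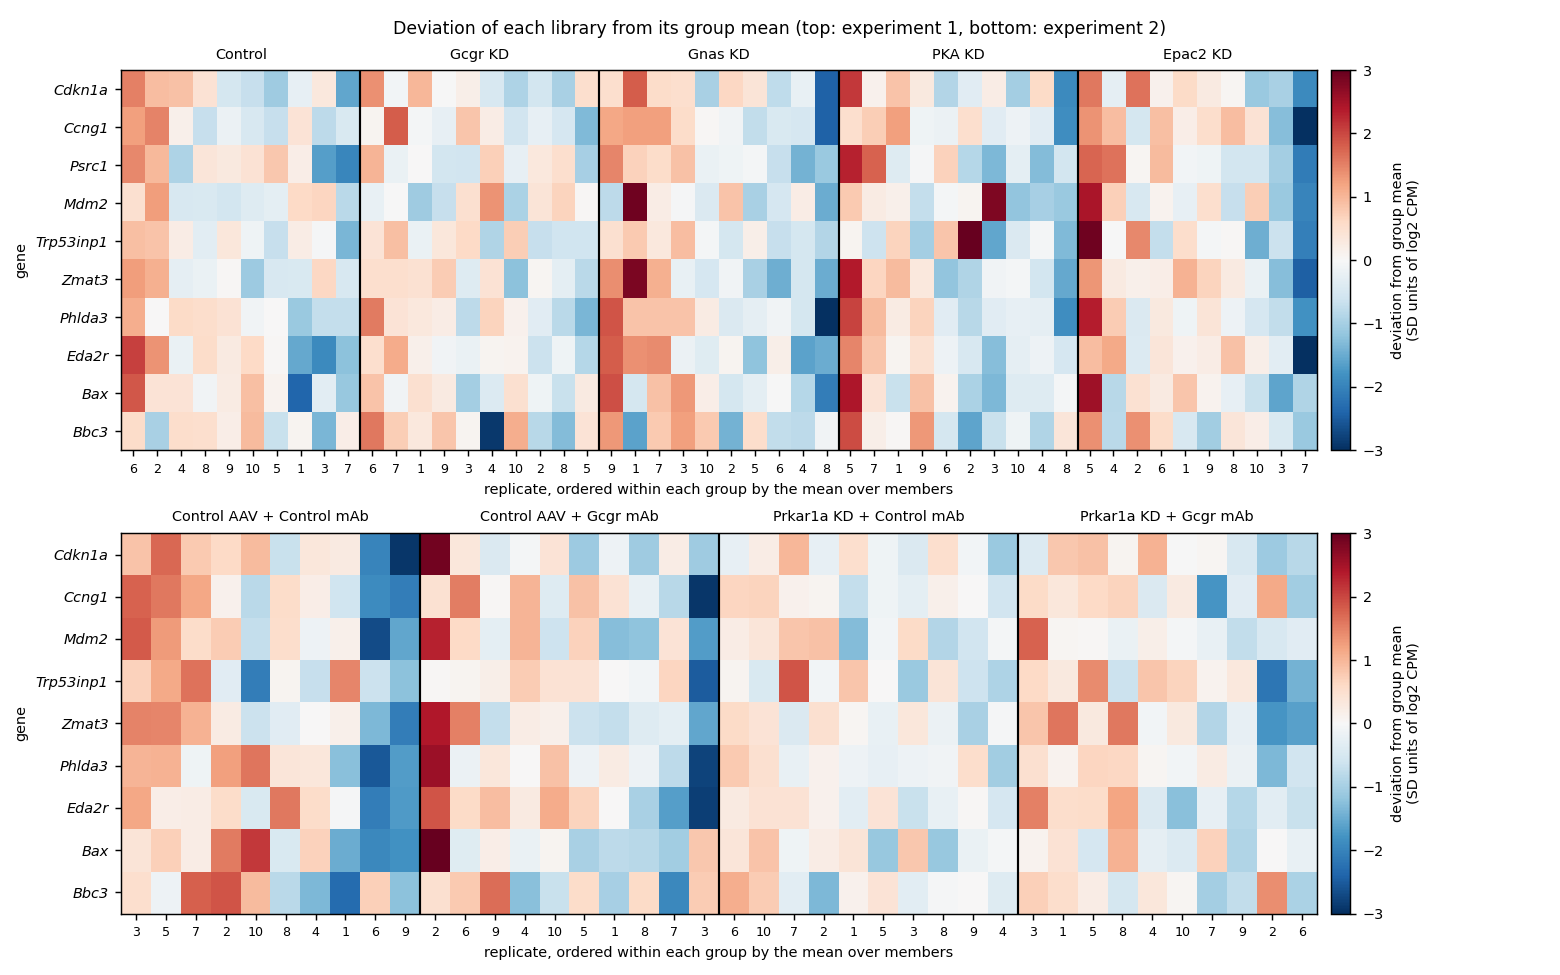
Deviation of each library (columns, ordered within a group by the mean over genes, numbered by replicate) from its group mean for each p53 target (rows), in SD units of log2 CPM, for experiment 1 (top) and experiment 2 (bottom). All genes lie above the group mean (red) in Epac2 KD and PKA KD replicate 5 and Control AAV + Gcgr mAb replicate 2. In the last of these, Ccng1 and Trp53inp1 are close to the mean. None lie above it in Epac2 KD replicate 7, Gnas KD replicate 8 and Control AAV + Control mAb replicate 9 (blue).

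The spread between libraries of a group differed among the members. Cdkn1a had a coefficient of variation of 37.2% to 122% across the 9 groups, and Mdm2 of 7.42% to 20.3%. Ccng1 lay between 6.73% and 19.1%. The highest Cdkn1a library exceeded the lowest by 3.01 times with Gcgr KD and by 4.19 times in Control, and the SE of its change against Control was 0.31 with Gcgr KD, against 0.086 for Ccng1. In the Prkar1a KD + Control mAb group the coefficient of variation was 6.73% for Ccng1, 14.1% for Eda2r and 9.54% for Zmat3, against 19.1%, 37.4% and 23.3% in Control AAV + Control mAb, and this difference in spread was not tested.

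Outside the 10 genes, the 5 whose within-group pattern was most like the members' mean, by Pearson r averaged over the experiments among 12737 genes, were Tmem43 (0.79 over 50 libraries and 0.87 over 40), Mapre3 (0.85 and 0.79), Aen (0.84 and 0.75), Ephx1 (0.86 and 0.72) and Mybl1 (0.75 and 0.79). Aen, an apoptosis nuclease gene, and Ephx1, an epoxide hydrolase gene, also stand in the lists of other p53 targets used here. Tmem43, a nuclear membrane protein gene, rose with Gcgr KD (0.82, adjusted p = 0.00403) and PKA KD (0.92, adjusted p = 0.000133). Mapre3, a microtubule end-binding protein gene, did not pass in either (0.09 and 0.02, adjusted p = 0.734 and 0.911). Nor did Aen (0.25 and 0.25, adjusted p = 0.167 and 0.0732) or Ephx1 (0.29 and 0.15, adjusted p = 0.218 and 0.469). Mybl1 did not pass in either as well (0.81 and 0.32, adjusted p = 0.194 and 0.564).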

How the data were processed

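Strand-specific libraries were made from polyadenylated liver RNA, per the labels' protocols. The values are expected counts per gene (Entrez identifier) deposited by the authors, not normalized, of which 8.54% and 8.41% had a fractional part. The submitters' processing notes name bcl2fastq 2.17, FastQC, GRCm38 and mm10, and no aligner or counter is given in the sources used here.

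Counts were rounded and each experiment was fitted once over all its groups (50 and 40 libraries) in R 4.3.3 with edgeR 4.0.16, using TMM scaling, filterByExpr, the robust quasi-likelihood F test and Benjamini-Hochberg adjustment over all tested genes, with calls at an adjusted p under 0.05. CPM used TMM library sizes, log2 CPM a prior count of 2, and levels per kilobase GENCODE exon lengths. Total counts bound the precision, and no pair of libraries of a group agreed within sampling noise (lowest chi-square per degree of freedom 14.8 and 7.94). Alternatives were RLE and total-count scaling, no filter, DESeq2 1.42.0, limma-voom (limma 3.58.1), only the groups compared, a replicate block and leaving out each library. The method was tested on simulated data. The 10 genes and all lists were chosen with earlier results of these data known. Named beyond the 10 genes were Trp53, Mdm4, up to 3 called genes per list and direction with the smallest adjusted p, and the 5 genes most like the 10. Markers of T and NK cells, B cells, neutrophils, erythroid cells and adipocytes were also read, and 1 marker gene is not reported here. Promoters came from RefSeq.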

Additional observations from a re-analysis of the deposited data

Results flagged for a closer look

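In 12 of the 90 combinations of a gene and a group, the highest or lowest of the 10 libraries stood away from its neighbour by a larger part of the group's range, on the log2 CPM scale, than Dixon's 95% critical value, which chance alone passes in about 1 in 20 groups. Of these, 7 were high and 5 were low, and 5 came from 2 libraries of Control AAV + Gcgr mAb.

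Control AAV + Gcgr mAb replicate 2 was high for Cdkn1a (46 CPM, the next library at 9.57), Psrc1 (3.43 CPM, the next at 0.529) and Bax (31.1 CPM, the next at 18.7). Replicate 3 of the same group was low for Ccng1 (39.3 CPM, the next at 53.4) and Trp53inp1 (55.4 CPM, the next at 96.6).

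Mdm2 was high in 3 libraries, at 46.1 CPM in PKA KD replicate 3 (the next at 34.3), 47.8 CPM in Gnas KD replicate 1 (the next at 35.2) and 39 CPM in Prkar1a KD + Gcgr mAb replicate 3 (the next at 33). Trp53inp1 was high in PKA KD replicate 2 (93.7 CPM, the next at 45.9). Ccng1 was low in PKA KD replicate 8 (36.5 CPM, the next at 44.8), Eda2r in Epac2 KD replicate 7 (0.602 CPM, the next at 1.78) and Phlda3 in Gnas KD replicate 8 (0.606 CPM, the next at 2.36).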

How the results depend on the processing

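Of the single-gene results, 84 were followed. Each combination of a result and another setting was counted once, and combinations from the same fit are not independent. The result kept its side of the threshold in 571 combinations, lost its call in 5 and gained one in 12. In these, 0 called values changed sign, while 11 uncalled estimates did. Counts of called genes moved in these cases, and the cause was not tested. With Epac2 KD the count of 2 became 1 under total-count scaling, without the filter, with limma-voom and in a fit on only the groups compared, and 1 to 4 without 1 library. With Gnas KD it ranged from 0 to 2 without 1 library. Between Epac2 KD and Gcgr KD it was 4 under total-count scaling, 2 with limma-voom and 1 to 3 without 1 library. Between PKA KD and Gcgr KD it was 0 to 1, and for Gcgr mAb in Control AAV 0 to 2, without 1 library. For Prkar1a KD it was 4 under total-count scaling with Control mAb. With Gcgr mAb it was 2 under total-count scaling, with limma-voom and with the replicate block (which added Phlda3), and 1 to 3 without 1 library. The replicate block changed no other call. The labels state no pairing of same-numbered libraries, and none was used in the main fit. Deviations of same-numbered libraries correlated at a median r of 0.10 over 100 pairs in experiment 1, against 0 for other numbers. In experiment 2 the median r was 0.00 over 60 pairs, against -0.01. Of 50 and 40 libraries, 9 and 5 correlated best with their own number. Such a check cannot exclude a weak pairing. Total-count scaling moved the share of called genes that were higher from 45.1% to 69.7% with Gnas KD, 39.9% to 14.3% with Epac2 KD, 35.6% to 51.1% with Gcgr mAb and 52.1% to 68.6% with Prkar1a KD. Psrc1 had the lowest median count of the 10 genes in all 9 groups.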
